A study of Mus musculus with 4 samples.

Results

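The genes described here encode the enzymes that build pyrimidine nucleotides and thymidylate: Cad, Dhodh, Umps, Ctps, Ctps2, Cmpk1, Nme1, Dctd and Tyms. They were taken by symbol from a named list, and all 9 had a row among the 23481 genes of the deposited count table. All 9 also passed the filter on low counts, which left 12843 genes for testing. The cells were mouse 4T1-T breast cancer cells, derived from the mammary carcinoma line 4T1, and every library came from cells in which Asns, the gene of asparagine synthetase, had been silenced. One group was grown in DMEM that lacked asparagine (called asparagine-free) and the other in DMEM that contained it (asparagine-fed), with 2 libraries per group, lettered A and B. The sources used here do not give how Asns was silenced, how many clones were used or how long the cells were grown. No unsilenced cells were analysed here.

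Pyrimidine rings are made from glutamine, bicarbonate and aspartate, the amino acid from which asparagine synthetase also draws. The trifunctional protein CAD performs the opening steps, DHODH oxidises dihydroorotate at the inner mitochondrial membrane, and UMPS completes uridine monophosphate. Kinases raise it to uridine triphosphate, CTP synthases turn that into cytidine triphosphate, and dCMP deaminase and thymidylate synthase supply the thymine nucleotide that DNA needs. Dividing tumour cells use the products for RNA, DNA, membrane lipids and sugar nucleotides.

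Each library held between 17977552 and 30260582 reads counted to genes. Library A without asparagine stood apart, with 56.6% of all its reads placed outside annotated features against 46.3% to 49.3% in the other 3. The ribosomal RNA precursor gene Rn45s took 3.53% and 1.66% of gene reads in asparagine-free A and B and 0.884% and 1.18% in the asparagine-fed ones. The epithelial markers of the cell type check were present in every library, with a summed level of 934 and 916 CPM without asparagine and 765 and 846 CPM with it. CPM is the usual depth-scaled read count, here on gene reads after TMM scaling, which adjusts for differences in library composition. Of the 20 markers of fibroblasts, leukocytes, endothelium and adipocytes, 17 stayed under 1 CPM in every library, among them Thy1, Cd3e and Adipoq, which had no read in any. The exceptions were the fibroblast marker Pdgfra at 18.1 to 42.8 CPM, the leukocyte marker Cd68 at 5.60 to 6.92 CPM and the endothelial marker Tek at 0.224 to 1.13 CPM. The summed fibroblast markers, nearly all Pdgfra, were at 18.5 and 23.3 CPM without asparagine and at 43.3 and 41.2 CPM with it. The part of these differences in the results below was not tested.

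None of the 9 genes passed the test between growth without and with asparagine (edgeR quasi-likelihood test, Benjamini-Hochberg adjusted p under 0.05 over all genes tested). The test called 237 genes in all, a background of 1.85% of those tested. Of the 9 genes, DESeq2's Wald test called 1, where 3.76% of all genes were called, and limma-voom 0. At an unadjusted p under 0.05 there were 2 of the 9, Nme1 and Ctps2, against 18.1% of all tested genes. The median log2 fold change of the 9 genes, coded as without minus with asparagine, was 0.14, against 0.01 for all tested genes. Of the 9, 6 lay above 0, as did 51.4% of all tested genes. For 4 of the 9 (Umps, Ctps, Nme1 and Tyms) both libraries without asparagine lay above both with it, as they did for 26.1% of all tested genes. For Ctps2 and Cmpk1 both lay below, as they did for 26.4% of all tested genes. In bulk RNA a lower level cannot be told apart from fewer cells that express the gene.

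**Figure D1:**
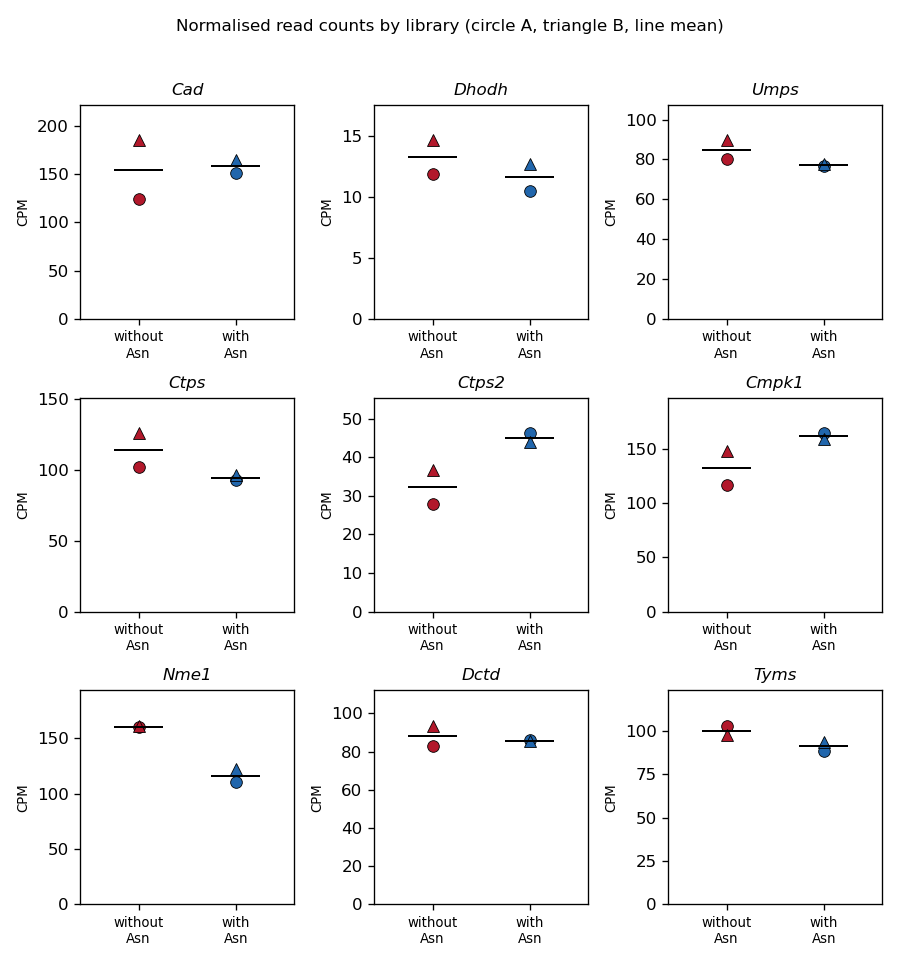
Normalised read counts (CPM, linear axis from 0) of the 9 genes in each library. Red symbols are cells without asparagine and blue symbols cells with it, circles library A and triangles library B, and the black line is the mean of 2. The groups are separate for Umps, Ctps, Ctps2, Cmpk1, Nme1 and Tyms, and the red symbols of Cad lie on both sides of the blue ones.

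Short stretches around motif letters are shown first, so that the letters found near the start sites can be set beside the values that follow. RefSeq promoter windows (build GRCm38.p6, 250 bases before to 50 after a start) were found for 8 of the 9 genes, in 14 windows. No window was matched for Dhodh. Searched on both strands were the E-box CACGTG, which MYC binds, the letters TGATGNAA of the element bound by ATF4 in the amino acid response, the E2F letters TTTCCCGC, TTTGGCGC and TTTCGCGC, and the CCAAT box. E-boxes were found in both windows of Nme1 and in that of Tyms, so 2 of the 8 genes held one, as do 8.09% of all genes with a window (7.15% of windows). CCAAT was found in Ctps2 and Dctd, and in 41.1% of all genes with a window (37.4% of windows). The ATF4 and E2F letters occurred in none of the 14 windows, against 3.97% and 1.84% of all windows. A match describes letters only. The 5 stretches of 30 bases read as follows, 5′ to 3′ on the strand of the gene, with the motif in capitals.
Nme1, chr11:93968273-93968302, minus strand, upstream start: gctgcggggaacCACGTGaggccggggagc
Nme1, chr11:93968037-93968066, minus strand, downstream start: agcttgatacgcCACGTGggctcgcctttg
Tyms, chr5:30073669-30073698, minus strand: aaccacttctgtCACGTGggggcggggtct
Ctps2, chrX:162902091-162902120, plus strand: aacctaggcgatCCAATgggccttggggac
Dctd, chr8:48109919-48109948, plus strand: cccatgcctgcaCCAATggggggcgggagg

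The E-box in Nme1 lay 18 to 13 bases before one start and 29 to 24 before the other, and that in Tyms 61 to 56 bases before its start. Both windows of Ctps and the single windows of Cad, Umps and Cmpk1 held none of the letters searched. Bases outside the windows were not searched, so a gene without a match may hold the letters elsewhere.

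Among the genes of uridine monophosphate synthesis, Cad had the widest spread. It read 124 CPM in asparagine-free library A and 185 in B, against 151 and 165 CPM in the asparagine-fed libraries A and B, so the libraries without asparagine lay on either side of those with it. The means were 154 ± 43.3 and 158 ± 9.58 CPM (SD, n = 2 each). On the log2 scale the fold change was -0.03 ± 0.18 (SE), with a 95% interval of -0.47 to 0.40 and an edgeR adjusted p of 0.941. Its direction depended on which library without asparagine was used. Leaving out library A gave 0.22 (adjusted p = 0.0190), in a fit that called 15.6% of its genes, and leaving out library B gave -0.36 (adjusted p = 2.42e-05), in a fit that called 40.4%. Cad lies on chromosome 5 from 31054780 to 31078479 (all gene positions are from GENCODE M21, build GRCm38, which is mm10).

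Dhodh, whose product feeds electrons to the respiratory chain, was the gene with the fewest reads, 218 to 381 per library, so that counting alone gives an SD of up to 6.77% of its value. It read 11.9 CPM in asparagine-free library A and 14.7 in B, against 10.5 and 12.7 CPM in the asparagine-fed ones, and the groups overlapped. The log2 fold change was 0.19 ± 0.17 (SE, 95% interval -0.21 to 0.59, edgeR adjusted p = 0.575). Leaving out asparagine-free B or asparagine-fed A gave 0.02 and 0.06 for Dhodh, and leaving out asparagine-free A or asparagine-fed B gave 0.33 in both fits, with no call in any. Umps, which joins orotate to ribose phosphate and removes the carboxyl group, read 80.4 CPM in asparagine-free library A and 89.5 in B, against 76.9 and 77.9 CPM in the asparagine-fed ones. Both libraries without asparagine were above both with it. The difference was small, with a log2 fold change of 0.14 ± 0.11 (SE, 95% interval -0.12 to 0.39, edgeR adjusted p = 0.525). For Umps it was 0.21 with asparagine-free A left out and 0.05 with B left out, again with no call. Dhodh lies on chromosome 8 from 109591343 to 109608673 and Umps on chromosome 16 from 33954782 to 33967038. Exons of the antisense gene Gm15829 cover 6.11% of the exon bases of Umps, and without a stated strand setting its reads cannot be told apart from those of Umps. Gm15829 has no row in the count table.

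The CTP synthase paralogues, which add an amino group from glutamine to uridine triphosphate, had fold changes of opposite sign. Ctps read 102 CPM in asparagine-free library A and 126 in B, against 92.6 and 96.1 CPM in the asparagine-fed ones. Ctps2 read 27.8 CPM in asparagine-free library A and 36.7 in B, against 46.2 and 43.9 CPM in the asparagine-fed ones. Thus the libraries without asparagine were the higher pair for Ctps and the lower pair for Ctps2, with no overlap for either gene. The log2 fold change was 0.27 ± 0.13 for Ctps (SE, 95% interval -0.03 to 0.57, edgeR adjusted p = 0.322). For Ctps2 it was -0.48 ± 0.15 (SE, 95% interval -0.83 to -0.13, unadjusted p = 0.0148, adjusted p = 0.174), a level of 0.717 times that with asparagine. Leaving out asparagine-free library A gave 0.41 for Ctps and -0.30 for Ctps2, and leaving out B gave 0.10 and -0.70. These intervals are for each gene alone and are not adjusted for the number of genes.

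Set against each other per kilobase of exon, Ctps2 made up 16.1% of the CTP synthase reads in asparagine-free library A and 17.0% in B, against 26.0% and 24.3% in the asparagine-fed ones. The group means were 16.6 ± 0.659% and 25.1 ± 1.17% (SD, n = 2 each), a difference of -8.56 percentage points. The gap exceeded the spread within either group, although libraries A and B without asparagine differed by -0.30 for Ctps and -0.40 for Ctps2 on the log2 scale (A minus B). In raw reads the shares were 21.5% (95% Wilson interval 19.9 to 23.2) and 22.6% (21.3 to 24.0) without asparagine and 33.3% (31.7 to 34.9) and 31.4% (29.98 to 32.8) with it, intervals that cover counting error only. With 2 libraries against 2, the exact two-sided permutation test gave p = 0.333, the smallest p this design allows, so the test could not pass the threshold. Ctps lies on chromosome 4 from 120539868 to 120570276 and Ctps2 on chromosome X from 162901238 to 163032508.

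**Figure D2:**
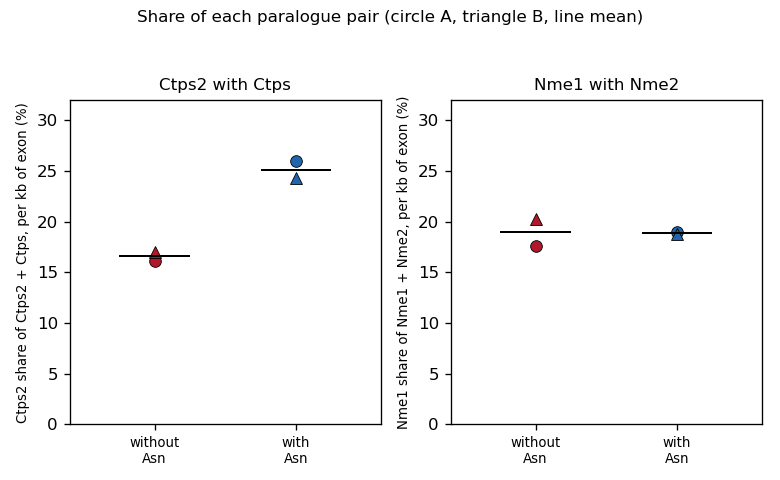
Share of Ctps2 in Ctps2 plus Ctps (left) and of Nme1 in Nme1 plus Nme2 (right), in percent of reads per kilobase of exon, for each library (red without asparagine, blue with it, circle A, triangle B, line mean). The Ctps2 share was 16.1% and 17.0% without asparagine and 26.0% and 24.3% with it, while the Nme1 shares of the groups overlap.

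Of the kinases, Cmpk1 phosphorylates UMP and CMP, and Nme1 encodes a subunit of nucleoside diphosphate kinase, which makes triphosphates. Cmpk1 read 117 CPM in asparagine-free library A and 147 in B, against 164 and 159 CPM in the asparagine-fed ones. Both libraries without asparagine were the lower ones, library A by more than library B. The log2 fold change was -0.29 ± 0.13 (SE, 95% interval -0.60 to 0.02, edgeR adjusted p = 0.309). Leaving out library A without asparagine gave -0.13, and leaving out library B gave -0.47. Cmpk1 lies on chromosome 4 from 114959336 to 114987241.

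Nme1 had the smallest p of the 9 genes. It read 160.0 CPM in asparagine-free library A and 161 in B, against 110.2 and 123 CPM in the asparagine-fed ones. The libraries without asparagine were nearly equal and both above those with it. The means were 160.5 ± 0.743 and 116 ± 8.77 CPM (SD, n = 2 each), a ratio of 1.38. The log2 fold change was 0.46 ± 0.10 (SE, 95% interval 0.22 to 0.71, unadjusted p = 0.00309, edgeR adjusted p = 0.0927). It was 0.47 when asparagine-free library A was left out and 0.45 when B was. It was 0.39 when asparagine-fed A was left out and 0.54 when B was. DESeq2's Wald test called Nme1 (adjusted p = 0.0402), where 3.76% of genes were called, and none of the other 8. Fitting without the low-count filter called Nme1 (adjusted p = 0.0131) and Ctps2 (adjusted p = 0.0137), where 6.73% of genes were called.

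The neighbouring paralogue Nme2, another nucleoside diphosphate kinase subunit, averaged 242 ± 28.2 CPM in asparagine-free and 175 ± 14.8 CPM in asparagine-fed cells (SD, n = 2 each). On the log2 scale the difference was 0.47 ± 0.12 (SE, edgeR adjusted p = 0.134). Per kilobase of exon, Nme1 made up 17.6% of the pair in asparagine-free library A and 20.3% in B, against 19.0% and 18.8% in the asparagine-fed ones. The group means, 18.9 ± 1.86% and 18.9 ± 0.139%, differed by 0.03 percentage points (exact two-sided permutation p = 1), less than the spread between libraries. In raw reads the Nme1 share was 37.9% and 42.0% in asparagine-free A and B and 40.1% and 39.8% in the asparagine-fed ones. The share per kilobase depends on the exon lengths taken, 3342 bases for Nme1 and 1171 for Nme2. Nme1 lies on chromosome 11 from 93956979 to 93968521 and Nme2 beside it from 93949814 to 93956259. Gm20390, a gene annotated on the same strand, shares 12.5% of the exon bases of Nme1 and 48.9% of those of Nme2. It has no row in the count table, and since the coding sequences of Nme1 and Nme2 are also alike, how reads were split between them is uncertain.

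The profile of Nme1 over the 4 libraries was most closely followed by Nhp2, which encodes a protein of small nucleolar ribonucleoproteins, Nfkb2, an NF-kB subunit gene, and Gdpd5, a phosphodiesterase gene. The measure was the root mean square distance between centred log2 CPM values, and it was 0.0144, 0.0206 and 0.0240, the smallest among 9809 genes whose mean reached 5 CPM. None of the 3 was called, with log2 fold changes of 0.43 for Nhp2, 0.44 for Nfkb2 and 0.42 for Gdpd5 (edgeR adjusted p = 0.118, 0.126 and 0.204). Since they were picked for closeness over the same 4 libraries, fold changes near that of Nme1 follow from the choice. A match over 4 libraries does not show a shared function.

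Neither gene of the thymidylate branch passed the test. Dctd, whose product deaminates dCMP to dUMP, read 83.2 CPM in asparagine-free library A and 93.3 in B, against 86.2 and 85.3 CPM in the asparagine-fed ones, and the groups overlapped. Its log2 fold change was 0.04 ± 0.11 (SE, 95% interval -0.21 to 0.30, edgeR adjusted p = 0.859). The sign of Dctd turned, to -0.05, with asparagine-free library B left out. Tyms, which encodes thymidylate synthase, the target of fluorouracil, read 103 CPM in asparagine-free library A and 97.2 in B, against 88.4 and 93.5 CPM in the asparagine-fed ones. The groups did not overlap, and the gap between them was smaller than the distance between the libraries of either group. The log2 fold change was 0.14 ± 0.10 (SE, 95% interval -0.11 to 0.38, edgeR adjusted p = 0.508). As a linear ratio the 95% interval ran from 0.864 to 1.23 for Dctd and from 0.929 to 1.30 for Tyms. Dctd lies on chromosome 8 from 48099092 to 48153233 and Tyms on chromosome 5 from 30058202 to 30073617.

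**Figure D3:**
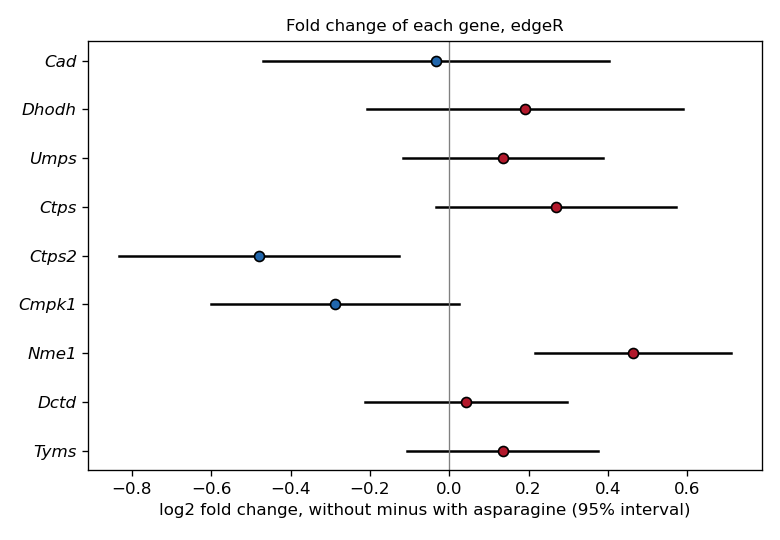
Log2 fold change (without minus with asparagine) of each gene from the edgeR fit, with its 95% interval as a line, which is not adjusted for the number of genes. Red points are above 0 and blue points below, and the intervals of Ctps2 (-0.83 to -0.13) and Nme1 (0.22 to 0.71) are those that leave out 0.

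Levels can be compared between genes only per length. Per kilobase of exon in GENCODE M21, the mean level over the 4 libraries ran from Cmpk1 at 42.9 CPM per kb and Nme1 at 41.4 through Ctps at 31.4, Dctd at 25.5, Umps at 23.3, Cad at 19.1 and Tyms at 15.7 to Ctps2 at 8.19 and Dhodh at 1.97. The ranges over libraries overlapped between Cmpk1, Nme1 and Ctps in turn, between Dctd and Umps, between Umps and Cad, and between Cad and Tyms. The ranges of Ctps and Dctd were apart, as were those of Tyms and Ctps2 and of Ctps2 and Dhodh. Exon length depends on the transcripts counted. With the basic transcript set of the same annotation, Tyms stood at 30.2 and Dctd at 38.6 CPM per kb, which put Tyms above Umps and Cad, and Dctd just above Ctps at 38.4, while Ctps2 at 10.2 and Dhodh at 6.11 kept the lowest places.

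The difference between libraries A and B without asparagine was uneven across the 9 genes. On the log2 scale, library A minus library B was -0.58 for Cad, -0.40 for Ctps2, -0.33 for Cmpk1, -0.30 for Ctps and Dhodh, -0.17 for Dctd, -0.15 for Umps, -0.01 for Nme1 and 0.08 for Tyms. With asparagine the same difference lay between -0.27 for Dhodh and 0.07 for Ctps2. Library A without asparagine was the lower of its pair for 8 of the 9 genes, though for Nme1 by only -0.01. The share of all tested genes for which library A was the lower was not counted, so the 8 cannot be read as a trait of these genes. Over 12064 tested genes, the A minus B difference had a Spearman correlation with exon length of -0.105 without and 0.169 with asparagine. For the difference between the groups, without minus with asparagine, it was -0.192. These are descriptions across genes of the same libraries. The part of read placement or length in these differences was not tested.

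**Figure D4:**
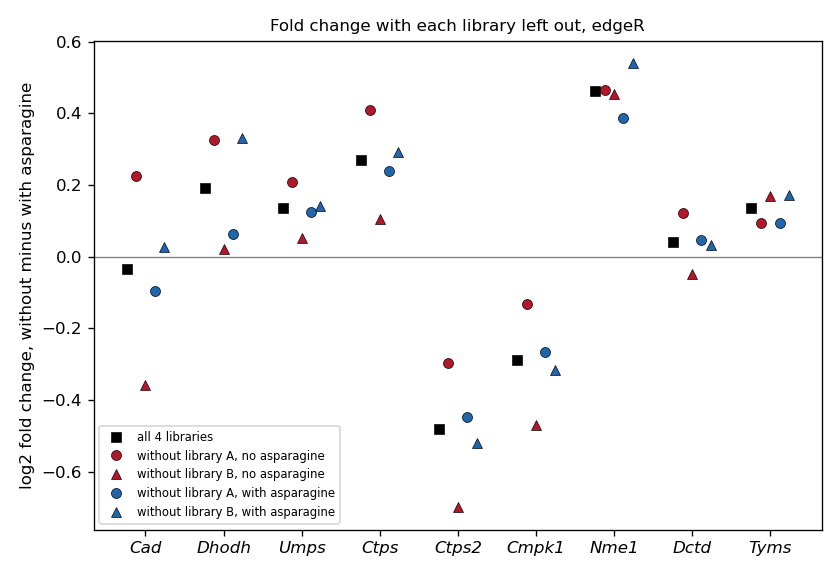
Log2 fold change (without minus with asparagine) of each gene with all 4 libraries (black squares) and with each library left out in turn (red for a library without asparagine, blue for one with it, circles A, triangles B). The points of Cad run from -0.36 to 0.22, those of Nme1 from 0.39 to 0.54 and those of Ctps2 from -0.70 to -0.30.

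Other genes of the pathway stood in 8 lists. Of their 85 tested genes none was called by the edgeR test, and 15 had an unadjusted p under 0.05, to be read against the 18.1% of all tested genes. DESeq2's Wald test called 0 to 2 genes per list, where 3.76% of all genes were called. With limma-voom the count was 0 in every list, where 235 of 12843 genes were called. Deoxynucleotide supply (9 genes, among them ribonucleotide reductase and thymidine kinases) had a median log2 fold change of -0.01, with 4 above 0. Its smallest p was that of Rrm1, the large subunit of ribonucleotide reductase, at 198 ± 45.6 CPM in asparagine-free and 236 ± 4.81 CPM in asparagine-fed cells (SD, n = 2 each, as in the lists below, log2 fold change -0.25, edgeR adjusted p = 0.428). Rrm1 was at -0.04 with asparagine-free library A left out and at -0.52 with B left out. Rrm2, its small subunit, chosen after its values were seen, had 293 ± 13.1 and 285 ± 1.77 CPM (log2 fold change 0.04).

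The folate cycle that serves thymidylate synthase (8 genes, median 0.04) held the smallest p of all 8 lists. Fpgs, which encodes the enzyme that adds glutamates to folates and keeps them in the cell, averaged 13.0 ± 0.983 CPM in asparagine-free and 7.84 ± 0.146 CPM in asparagine-fed cells. Its log2 fold change was 0.73 ± 0.14 (SE, 95% interval 0.39 to 1.07, edgeR adjusted p = 0.0622). The folate carrier gene Slc19a1, also named only once its values were known, was at 0.49 on the log2 scale (edgeR adjusted p = 0.136). Fpgs and Slc19a1 were the 2 of the 8 genes with an unadjusted p under 0.05, against 18.1% of all tested genes.

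Salvage and further kinases (15 tested genes, median -0.02) had 7 genes above 0 and 8 below, with Nme2 at the smallest p. Cmpk2, Slc28a2 and Slc28a3 did not pass the filter. In pyrimidine breakdown and nucleotidase genes (7 tested, median -0.12), Nt5e, which encodes the ectonucleotidase CD73, averaged 180.4 ± 15.2 CPM in asparagine-free and 248 ± 3.16 CPM in asparagine-fed cells (log2 fold change -0.46 ± 0.11, SE, edgeR adjusted p = 0.0993). Dpyd, Dpys, Upb1 and Upp2, the genes of the reductive breakdown route and a uridine phosphorylase, did not pass the filter. Enzymes that spend UTP or CTP on sugar nucleotides and lipids (10 genes, median -0.15) had 7 genes below 0.

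Aspartate and glutamine supply, the source of the ring atoms, had the lowest median of the 8 lists at -0.25, with 7 of 10 tested genes below 0. That rank rested on asparagine-free library A: with it left out the median was -0.04, above the -0.16 of the enzymes that spend UTP or CTP. The smallest p was that of Asns itself, the silenced gene, with 82.1 ± 10.1 CPM in asparagine-free and 102 ± 0.990 CPM in asparagine-fed cells (log2 fold change -0.31, edgeR adjusted p = 0.235). For Asns the log2 value was -0.19 with asparagine-free A left out and -0.45 with B left out. Ass1 and Slc1a3 did not pass the filter. Among 10 genes of MYC, E2F and the mTOR and S6 kinase pathway, which are known to act on Cad or Tyms, 9 lay above 0. Over all tested genes 51.4% did. Many of the 9 lay close to 0, with a median of 0.04 for the list. Both libraries without asparagine lay above both with it for 3 of the 10, against 26.1% of all tested genes. They lay below for 1 of the 10, against 26.4% of all tested genes. The one below 0, Mtor, the kinase gene, averaged 103 ± 7.89 CPM in asparagine-free and 142 ± 0.372 CPM in asparagine-fed cells (log2 fold change -0.46 ± 0.11, SE, edgeR adjusted p = 0.0941). Myc, chosen after its values were seen, had 688 ± 44.2 and 503 ± 25.1 CPM (log2 fold change 0.45 ± 0.11, SE, edgeR adjusted p = 0.107).

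Genes of S phase, with which Tyms is known to rise in the cell cycle, were evenly divided, with 8 of 16 above 0 and a median of 0.01. Gins2, a subunit of the replicative helicase, had the smallest p, at 41.3 ± 15.2 CPM in asparagine-free and 61.7 ± 0.532 CPM in asparagine-fed cells (log2 fold change -0.57, edgeR adjusted p = 0.247). It was -0.25 without library A and -1.01 without library B of the cells without asparagine. With each library left out in turn, the log2 fold change ran from 0.65 to 0.80 for Fpgs and from 0.34 to 0.58 for Nme2. It ran from -0.55 to -0.38 for Nt5e and from -0.55 to -0.39 for Mtor.

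**Figure D5:**
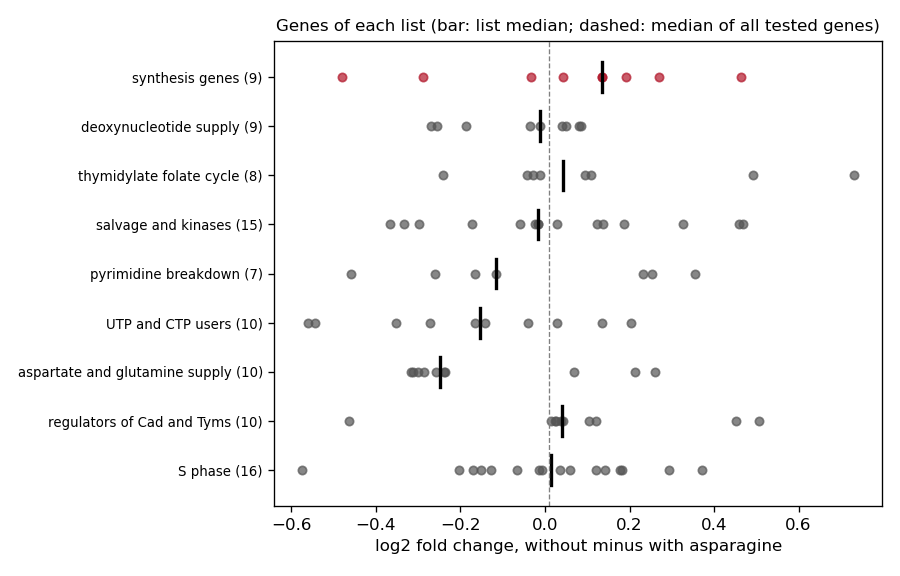
Log2 fold change (without minus with asparagine) of every tested gene of the 9 synthesis genes (red) and of the 8 other lists (grey), with the number of genes in brackets, the list median as a black bar and the median of all tested genes as a dashed line. No point was called, and the medians run from -0.25 for aspartate and glutamine supply to 0.14 for the synthesis genes.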

How the data were processed

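RNA of 4 libraries was sequenced after Qiagen extraction and NuGEN Ovation V2 amplification, per the labels' protocols. The authors deposited raw read counts per gene symbol in a single table. The submitters' processing notes name Bowtie2, HTSeq and the build mm10. The sources used here give no version, setting, annotation or strand. Reads in the 5 summary rows (60.1% to 70.0% per library) were left out of totals and tests. Whether A and B were separate cultures is not stated, and p-values may then rest on technical spread alone.

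Genes passing filterByExpr (minimum count 10, minimum total 15) underwent TMM scaling and edgeR's quasi-likelihood test over all genes (edgeR 4.0.16, R 4.3.3), with a common biological coefficient of variation of 11.2%. SEs were worked back from F. Intervals are 95%. Exon lengths came from GENCODE M21 and promoter windows from RefSeq. The procedure was tested on simulated data in which every gene had this coefficient of variation and no library stood apart. That setting does not cover a library such as asparagine-free A. The 9 genes and all lists were chosen with earlier results of these data known. From each other list, up to 4 called genes or the gene with the smallest p are named, and, for the synthesis gene with the smallest p, the 3 genes of most similar profile. For 1 list, that gene is not reported here. Alternatives were DESeq2 size factors, upper quartile scaling, DESeq2 1.42.0, limma-voom (limma 3.58.1), 2 other low-count filters, the letter as a block, the 10 most abundant genes left out, and each library left out.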

Additional observations from a re-analysis of the deposited data

How the results depend on the processing

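The count of called synthesis genes, 0 in the edgeR test, was 2 with no low-count filter, 2 with the letter as a replicate block (Nme1, adjusted p = 0.0407, and Ctps2, adjusted p = 0.0434), 1 with DESeq2's Wald test, and 0 to 4 with each library left out. It was 0 under both scalings, limma-voom, the 5 CPM filter and without the 10 most abundant genes. In a fit without a library, the lone library of that group is assumed to vary like the other group, whose 2 libraries alone set the spread. The calls of synthesis genes came without asparagine-free A or B, and none came without an asparagine-fed library. Same-lettered libraries deviated from their group means with a correlation of 0.12, and the letters are not said to pair cultures. The block raised the count over all genes from 237 of 12843 to 816 of 12843. It was 1334 of 19828 with no filter and 464 of 12345 with DESeq2's Wald test. Leaving out a library gave 2051 (asparagine-free A), 5363 (asparagine-free B), 58 (asparagine-fed A) and 48 (asparagine-fed B). The other lists, with 0 called in the edgeR test, had with no filter 2 for the folate cycle, UTP and CTP users and regulators and 1 for salvage, breakdown and S phase. The block gave 2 for the folate cycle and for UTP and CTP users and 1 for breakdown, regulators and S phase. DESeq2 gave 2 for regulators and 1 for the folate cycle, breakdown and UTP and CTP users. Leaving out a library gave ranges of 0 to 2 for deoxynucleotide supply, 0 to 3 for the folate cycle, 0 to 8 for salvage, 0 to 5 for breakdown, 0 to 6 for UTP and CTP users, 0 to 7 for aspartate and glutamine supply, 0 to 4 for regulators and 0 to 9 for S phase. The highest count of each list came without asparagine-free B, except that of the folate cycle, which came without asparagine-free A. The fit without asparagine-free B called 40.4% of all its genes, so these counts are not read as a trait of any list. The median of the synthesis genes ran from 0.021 to 0.21 with each library left out in turn. The sign of Cad turned with upper quartile scaling (0.0082), without asparagine-free library A (0.22) and without asparagine-fed library B (0.026), against -0.36 without asparagine-free library B, and that of Dctd without asparagine-free library B (-0.047). List medians near 0 also turned: deoxynucleotide supply (0.035 with upper quartile scaling, 0.022 with the 5 CPM filter), salvage (0.032 with upper quartile scaling, and -0.058 to 0.064 with a library left out), breakdown (0.067 with the 5 CPM filter, -0.094 to 0.059 with a library left out) and S phase (-0.0080 without the 10 most abundant genes, -0.034 to 0.057 with a library left out, -0.0013 without asparagine-fed library A). The Ctps2 share differed by -10.3 points in raw reads and by -9.39 to -7.73 with a library left out, and the Nme1 share by -1.29 to 1.34. The cause of these shifts was not tested. With 2 libraries per group, the intervals given are wide, and a missed threshold does not show that a gene did not differ.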
